A study of Neurospora crassa with 6 samples.

Results

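The genes described here are those of 3 heat shock proteins of the filamentous fungus Neurospora crassa, Hsp30 (NCU09364), Hsp98 (NCU00104) and Hsp78 (NCU02630). They were chosen by name, though with earlier results of these data known, and make up 3 of the 9730 genes in the deposited table. Transcripts of wild type (wt) and the os2 mutant were measured by RNAseq in germinating conidiospores, the asexual spores of the fungus, after 3 treatments. Each of the 6 libraries stands for 1 strain in 1 treatment, so every ratio compares 1 library with 1 other. A ratio therefore has no replicate check, no p-value is given, and "rose" or "fell" means a change of at least 2-fold between 2 libraries.

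Conidia of both strains were first germinated for 5 hr at 30°C in Vogel's medium with 0.05% glucose. The controls were then held at 30°C for 1 hr more, heat shock (HS) was 2 hr at 45°C, and dual stress (DS) was 2 hr at 45°C in medium that also held 2-deoxyglucose (2-DG), a glucose analog that is phosphorylated by cells but blocks glycolysis. Because the stress treatments lasted longer than the control incubation, time and temperature cannot be told apart in HS/30 and DS/30, whereas DS/HS compares equal times. The wt strain was OR74A. The os2 strain was the long-used mutant UCLA 80A, whose point mutation lies in os-2, the gene of a stress-activated MAP kinase. It is 1 strain with a background other than OR74A, so the mutation and the background cannot be told apart in os2/wt.

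Heat shock proteins are molecular chaperones that keep damaged proteins from clumping or return them to their folded form. Hsp30 is a small heat shock protein of the alpha-crystallin family, which binds unfolding proteins without using ATP. Hsp98 is the counterpart of yeast Hsp104, a ring-shaped ATPase of the cytosol that pulls single proteins out of aggregates with the help of Hsp70 and its J-domain partners. Hsp78 is a related ClpB-type ATPase of the mitochondrial matrix, known from yeast to resolubilize proteins there. The members thus span the holding of unfolding proteins (Hsp30) and the dissolving of aggregates in the cytosol (Hsp98) and in mitochondria (Hsp78).

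In RefSeq assembly NC12, Hsp30 lies on chromosome I from 3586694 to 3588207, Hsp78 on chromosome I from 2990148 to 2993018, and Hsp98 on chromosome III from 2634913 to 2638616. Their spans, introns included, are 1514, 2871 and 3704 base pairs.

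Levels are given in FPKM, the number of sequenced fragments of a gene corrected for the length of its transcript and by a scaling factor of the library. Column totals ranged from 426267 (os2 HS) to 899576 (wt DS) and column medians, taken over genes above 0, from 13.5 to 15.4 FPKM. The FPKM steps of the lowest genes gave roughly 9110000 to 14200000 fragments on genes per library. The scaling did not follow these numbers. With about 12700000 fragments in wt HS and 12800000 in wt DS, 1 fragment gave an FPKM times gene length of 82.2 and 143. The median log2 ratio over all genes was near 0 in every comparison, from -0.09 (wt DS/HS) to 0.02 (os2 DS/HS). Ratios are thus relative to the typical gene, and those relative to the column total are given as scaled to the same total. At 30°C the members rested on between 387 (Hsp78, os2) and 1625 (Hsp98, os2) fragments, for a counting error of 2.48% to 5.08%, and in the stressed libraries the counting error was at most 1.94%. These errors cover counting only, not the variation between cultures, which was not measured. The os-2 transcript itself was lower in os2 (34.3 to 37.5 FPKM) than in wt (65.1 to 113 FPKM) in all 3 treatments. Of 5 genes used as markers of conidia, con-6, con-8, con-10 and eas were above 0 in all 6 libraries and con-13 lay between 0 and 1.72 FPKM. Their summed level differed between libraries, from 142 FPKM (os2 HS) to 1157 FPKM (wt HS), and its part in the results was not tested. The sum is not a single measure of stage, as the markers went opposite ways. From 30°C to HS in wt, con-10 rose from 34.9 to 585 FPKM, and con-6 and con-8 rose too, while eas fell from 308 to 30.7 FPKM.

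At 30°C the members were at moderate levels, and by DS they were among the most abundant transcripts of both strains. In wt, Hsp30 went from 49.9 FPKM at 30°C to 11079 under HS and 80639 under DS. In os2 it went from 43.0 FPKM at 30°C to 3112 under HS and 27607 under DS. Ordered by level among all 9730 genes, Hsp30 moved from place 1865 at 30°C to place 4 in HS and place 1 in DS in wt. In os2 it moved from place 2098 to place 4 and then place 1. No other transcript in the DS library of either strain had a higher FPKM than this holding chaperone.

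Above Hsp30 in wt HS stood ccg-1 with 51910 FPKM, NCU04314 with 36690 and ccg-16 with 15819. Above it in os2 HS stood NCU04314 with 7606 FPKM, ccg-16 with 6727 and tef-1 with 3488. The gene tef-1 encodes a translation elongation factor, and the ccg genes were first found as clock-controlled genes.

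Hsp98, the cytosolic disaggregase, started in wt from 46.5 FPKM at 30°C, close to Hsp30, and reached 443 under HS and 18575 under DS. The os2 libraries gave 45.6 FPKM at 30°C, 232 under HS and 2721 under DS. By level it held place 1984 in the wt control, place 134 after HS and place 3 after DS. In wt DS it was preceded only by Hsp30 and by Hsp70 (22066 FPKM). The places in os2 were 1979, 316 and 8.

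Hsp78, the mitochondrial disaggregase, was the lowest of the members in all 6 libraries. Its wt levels were 16.2 FPKM at 30°C, 371 under HS and 4745 under DS. Its os2 levels were 14.0, 92.6 and 996 FPKM in the same order of treatments. Across the treatments its place by level changed from 4207 to 169 to 15 for wt, and from 4450 to 899 to 45 for os2. The order by level was Hsp30, Hsp98, Hsp78 in 5 libraries, and in os2 at 30°C Hsp98 (45.6 FPKM) stood marginally above Hsp30 (43.0 FPKM). At 30°C Hsp30 and Hsp98 lay within 1.07-fold of each other in wt, a distance for which no spread between cultures is known.

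**Figure D1:**
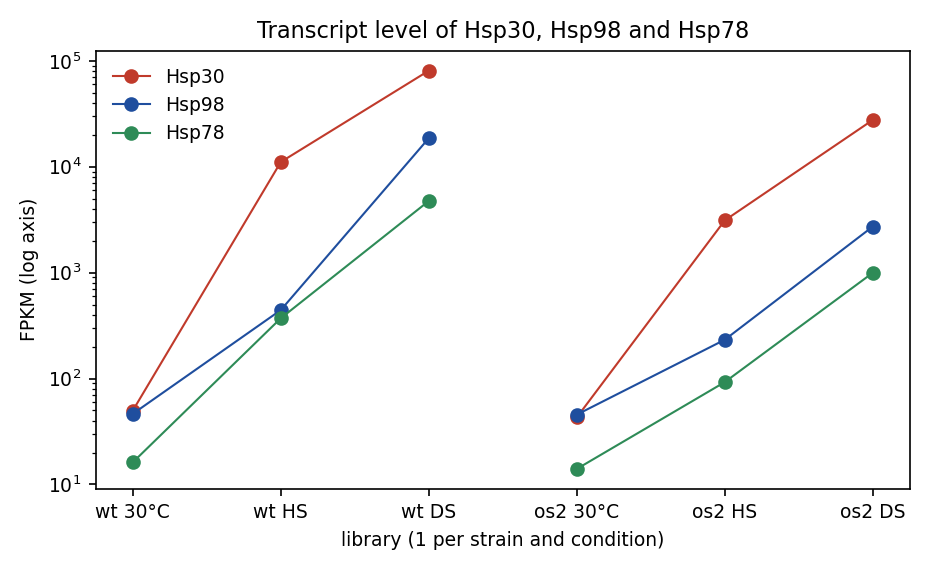
FPKM (log axis) of Hsp30, Hsp98 and Hsp78 in the 6 libraries, 1 point per library, with lines joining the treatments of a strain. Hsp30 rises from 49.9 to 80639 FPKM in wt and from 43.0 to 27607 FPKM in os2, and all 3 genes are lower in os2 than in wt in HS and in DS.

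As a share of the FPKM total of its library, Hsp30 made up 0.00693% at 30°C, 2.04% after HS and 8.96% after DS in wt, against 0.00589%, 0.730% and 5.70% in os2. Hsp98 reached 2.06% in wt DS and 0.562% in os2 DS, and Hsp78 reached 0.528% and 0.206%. The 3 transcripts together made up 0.0156% of the wt total at 30°C, 2.19% after HS and 11.6% after DS. In os2 the sum was 0.0141%, 0.806% and 6.47%. Since FPKM divides by length, these are close to shares of transcript molecules. When FPKM was multiplied by gene length, a measure closer to sequenced fragments that was chosen after the values were seen, the sum was 11.2% in wt DS and 5.18% in os2 DS. On that measure Hsp98 was 3.75% in wt DS. In bulk RNA, fewer cells with a transcript and less of it per cell cannot be told apart.

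HS raised all 3 transcripts in both strains. In wt HS/30 the log2 ratio was 7.80 for Hsp30 (222-fold), 4.52 for Hsp78 (22.9-fold) and 3.25 for Hsp98 (9.54-fold). A 2-fold rise was frequent in this comparison, where 28.3% of 8013 genes had one, so the count of 3 of 3 says little, and the sizes are the description. Places by ratio, given here and below for genes with a mean of at least 1 FPKM, depend on which low genes enter and on the pseudocount. Hsp30 stood at place 22 from the highest ratio (4 with a pseudocount of 1, 37 with no filter), Hsp78 at place 254 and Hsp98 at place 558. In os2 HS/30 the log2 ratios were 6.18 for Hsp30 (72.4-fold), 2.72 for Hsp78 (6.60-fold) and 2.35 for Hsp98 (5.09-fold). There, 19.3% of 8032 genes rose, and the places were 8, 261 and 391 (2, 102 and 155 with a pseudocount of 1). Hsp30 responded most and Hsp98 least to HS in both strains.

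Addition of 2-DG at 45°C raised them again. In wt DS/HS the order was turned around, with log2 ratios of 5.39 for Hsp98 (41.9-fold), 3.68 for Hsp78 (12.8-fold) and 2.86 for Hsp30 (7.28-fold), against a rise in 21.1% of 8079 genes. Hsp98 stood at place 13 of these genes by ratio, Hsp78 at place 152 and Hsp30 at place 338. In os2 DS/HS the members were closer together, with 3.55 for Hsp98 (11.7-fold), 3.43 for Hsp78 (10.8-fold) and 3.15 for Hsp30 (8.87-fold). Only 10.2% of 8078 genes rose in os2 DS/HS, and the members held places 23, 28 and 37. The order Hsp98, Hsp78, Hsp30 in DS/HS was thus the same in both strains, although in os2 the log2 ratios lay within a much narrower range.

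Over the whole span, the log2 ratio of wt DS/30 was 10.66 for Hsp30, 8.64 for Hsp98 and 8.19 for Hsp78, or 1617-fold, 400-fold and 293-fold. These were places 8, 13 and 14 of 8005 genes, of which 19.4% rose, and places 1, 4 and 5 with a pseudocount of 1 or 17, 23 and 24 with no filter. In os2 DS/30 the log2 ratios were 9.33, 5.90 and 6.15, or 643-fold, 59.6-fold and 71.0-fold, at places 8, 26 and 19 of 8034 genes, of which 23.3% rose. Hsp98 was ahead of Hsp78 in wt and behind it in os2.

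The share of the log2 DS/30 ratio already reached in HS separated the genes. For Hsp30 it was 73.1% in wt and 66.2% in os2, so most of its rise, on the log2 scale, came with heat alone. For Hsp98 it was 37.7% and 39.8%, so most of its rise came with 2-DG. Hsp78 lay between them, with 55.1% in wt and 44.3% in os2. Scaling the columns to the same total added 0.41 to every log2 ratio of wt HS/30 and took 0.73 from every one of wt DS/HS. Such scaling moves all genes of a comparison equally, so it cannot change the order of members in DS/HS, but it changes these shares. Scaled so, Hsp98 had 3.66 in HS/30 and 4.66 in DS/HS in wt, and 3.12 and 3.36 in os2. For Hsp78 in os2 the HS/30 part then became the larger (3.50 against 3.24).

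**Figure D2:**
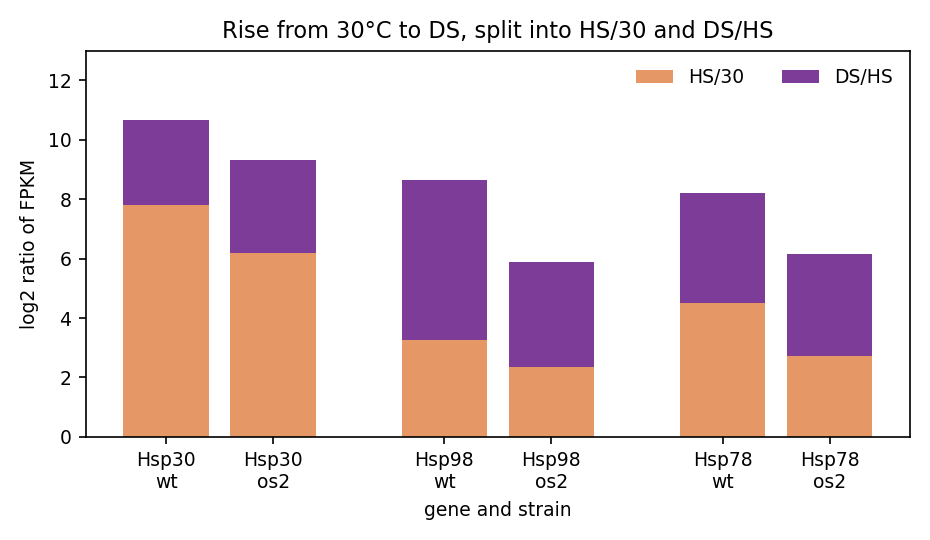
Bars give the log2 ratio of DS/30 for each gene and strain, split into the part HS/30 (lower, orange) and the part DS/HS (upper, purple). HS/30 makes up 73.1% of the Hsp30 bar and 37.7% of the Hsp98 bar in wt.

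Without stress the strains had near-equal levels. The log2 os2/wt ratio at 30°C was -0.21 for Hsp30, -0.03 for Hsp98 and -0.21 for Hsp78, and its median absolute size over 7988 genes was 0.22. Of these genes, 51.1% had a larger difference than Hsp30, 93.4% than Hsp98 and 52.4% than Hsp78. The sign for Hsp98 turned positive when columns were scaled to the same upper quartile. No member fell here, and 3% of the genes did.

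Under stress all 3 were lower in os2. In os2/wt HS the log2 ratio was -2.0 for Hsp78 (4.01-fold lower in os2), -1.83 for Hsp30 (3.56-fold) and -0.93 for Hsp98 (1.91-fold). Hsp78 and Hsp30, 2 of the 3, passed 2-fold, in a comparison where 17.9% of 8081 genes were that much lower in os2. Counted from the lowest ratio, Hsp78 was at place 502, Hsp30 at 596 and Hsp98 at 1546.

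In os2/wt DS the log2 ratio was -2.77 for Hsp98 (6.83-fold lower), -2.25 for Hsp78 (4.76-fold) and -1.55 for Hsp30 (2.92-fold). All 3 fell by 2-fold or more, as did 16.5% of 8072 genes, and their places from the lowest were 88, 175 and 612. The member with the smallest strain difference in HS, Hsp98, thus had the largest in DS. The DS columns differ in total, and when all columns were scaled to the same total these ratios became -1.88, -1.36 and -0.65, so that Hsp30 no longer passed 2-fold.

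The difference between strains in response, os2 minus wt in log2 ratio, put these values side by side with those of all genes. For HS/30 it was -1.62 for Hsp30, -0.91 for Hsp98 and -1.79 for Hsp78, where 9.26%, 18.9% and 7.91% of 7982 genes had a lower value and the median was 0.06. For DS/HS it was 0.29 for Hsp30 and -0.25 for Hsp78, both near the middle of 8063 genes, and -1.84 for Hsp98, with 11.9% of genes lower. The DS/HS ratio of Hsp98 was thus 3.58 times smaller in os2. When columns were scaled to the same total, these DS/HS differences became 0.83 for Hsp30, 0.30 for Hsp78, now positive, and -1.29 for Hsp98. For DS/30 the differences were -1.33 for Hsp30, -2.75 for Hsp98 and -2.04 for Hsp78, with 11.0%, 0.953% and 3.25% of 7977 genes lower. Hsp98 was the 77th lowest of these genes. None of these differences could be tested with 1 library per strain and treatment.

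**Figure D3:**
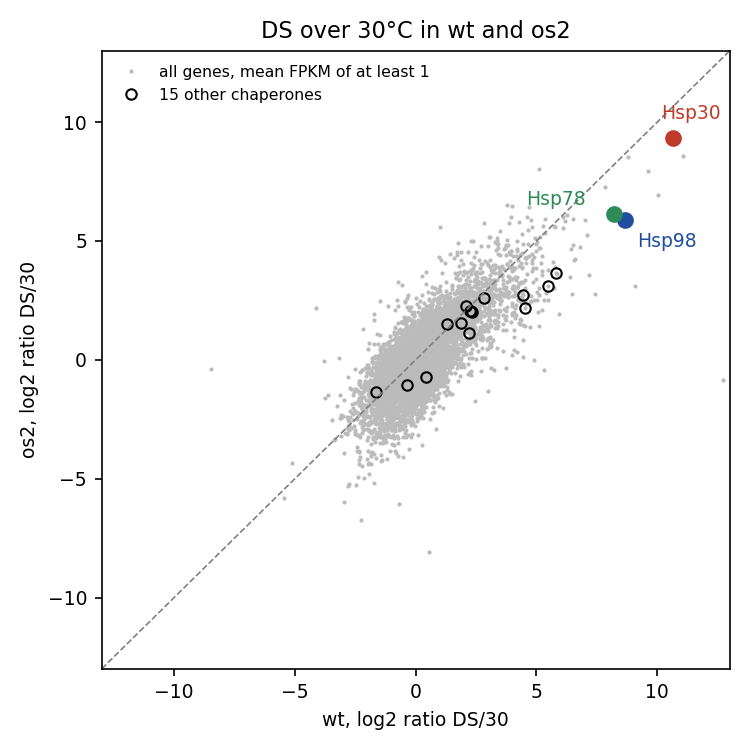
Log2 DS/30 ratio in wt (horizontal) against os2 (vertical) for 7977 genes with a mean of at least 1 FPKM (grey, 11 of them outside the axes), 15 other chaperones (open circles) and the members (filled). Points under the dashed line of equality rose less, or fell more, in os2: Hsp98 lies at 8.64 and 5.90, Hsp78 at 8.19 and 6.15 and Hsp30 at 10.66 and 9.33.

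Ratios between genes within a library do not depend on how columns are scaled. Hsp30 over Hsp98 was 1.07 at 30°C, 25.0 after HS and 4.34 after DS for wt, and 0.942, 13.4 and 10.1 for os2. The holding chaperone and the cytosolic disaggregase, near each other at 30°C, were therefore furthest apart in HS in both strains, and in DS Hsp98 was closer to Hsp30 in wt than in os2. Hsp98 over Hsp78, the cytosolic over the mitochondrial disaggregase, stayed within a narrower range. In the same order of treatments it was 2.87, 1.19 and 3.91 for wt, and 3.25, 2.51 and 2.73 for os2. Hsp30 over Hsp78 was 3.08, 29.9 and 17.0 for wt, and 3.06, 33.6 and 27.7 for os2.

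Each disaggregase was also set against a chaperone of its own compartment, pairs that were chosen after the values were known. Hsp98 over Hsp70 (NCU09602), the cytosolic chaperone it works with, was 0.0478 at 30°C, 0.195 after HS and 0.842 after DS for wt, and 0.0500, 0.0853 and 0.657 for os2. Hsp98 thus came from far below Hsp70 to near its level in DS. Hsp78 over Hsp60 (NCU01589), the chaperonin of the mitochondrial matrix, was 0.0666, 0.653 and 4.01 for wt, and 0.0724, 0.148 and 1.23 for os2. Transcripts of Hsp78 exceeded those of Hsp60 only in the DS libraries. Hsp78 over GrpE (NCU01516), the nucleotide exchange factor of mitochondrial Hsp70, went from 0.145 to 12.5 and 131 in wt and from 0.148 to 1.51 and 26.9 in os2. GrpE itself fell in DS/30 in both strains and in wt HS/30 (-1.92), but not past 2-fold in os2 HS/30 (-0.62).

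**Figure D4:**
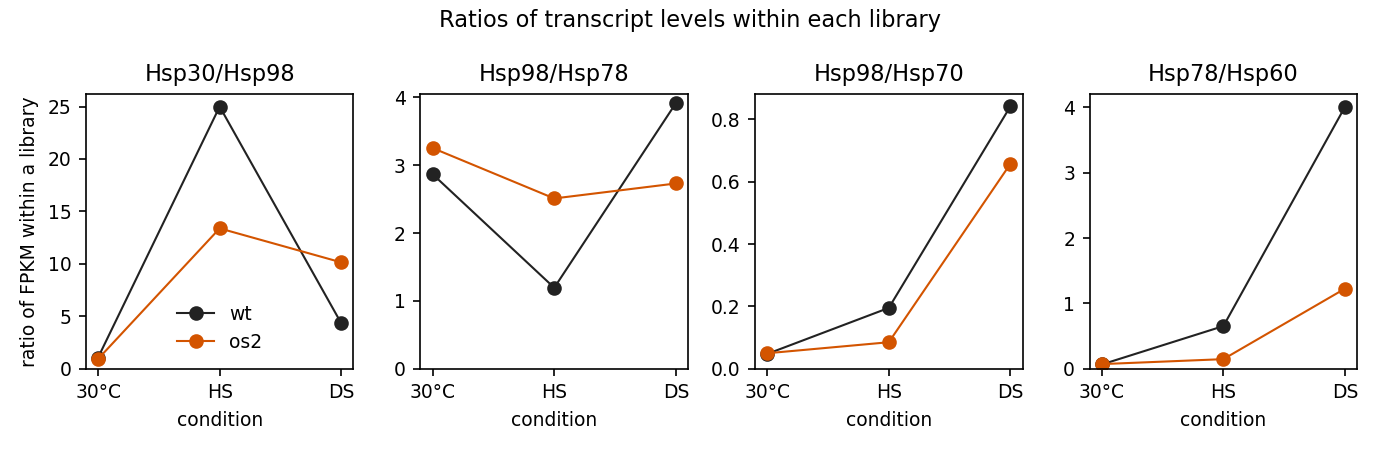
Ratio of 2 transcript levels (FPKM over FPKM) within each library, by treatment, in wt (black) and os2 (orange), on linear axes that start at 0. Hsp30/Hsp98 is highest in HS (25.0 in wt, 13.4 in os2), while Hsp98/Hsp70 and Hsp78/Hsp60 are highest in DS.

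For comparison, 15 other chaperones and cochaperones were taken from the stress proteins that the study listed from its protein data on these strains. The list is therefore not independent of these strains. In that protein comparison of os2 with wt in DS, the study found the major heat shock proteins higher in os2, in contrast to their transcripts. In wt HS/30 9 of the 15 rose and 3 fell, beside 28.3% and 27.7% of all genes. The median log2 ratio of the 15 was 1.15, against -0.02 over all genes. In os2 HS/30 11 rose and 0 fell (median 1.51), beside 19.3% and 15.1% of all genes. In wt DS/HS 10 rose and 0 fell (median 1.12), beside 21.1% and 20.3%, and in os2 DS/HS only 2 rose, Sis1 and Fes1, and 0 fell (median 0.53), beside 10.2% and 7.37%. In wt DS/30 12 rose and 1 fell (median 2.26), beside 19.4% and 15.1%, and in os2 DS/30 12 rose and 2 fell (median 2.05), beside 23.3% and 19.4%. All 3 members rose in os2 DS/HS with higher log2 ratios than the 15, whose range was -0.73 to 1.88. This was not so in every comparison. In wt DS/HS Fes1 (4.63) was above Hsp78 and Hsp30 and Hsp70 (3.28) above Hsp30, and in HS/30 Sis1 (3.42 in wt, 2.58 in os2) was above Hsp98. Scaled to the same total, 4 of the 15 rose in wt DS/HS (median 0.39) and 1 in os2 DS/HS, and 3 were lower in os2/wt DS. In os2/wt at 30°C none of the 15 passed 2-fold, beside 2.99% of all genes higher and 3% lower in os2. In os2/wt HS 1 of them, GrpE, was higher in os2 and 0 were lower, beside 16.3% and 17.9%. In os2/wt DS 0 of the 15 were higher and 6 lower (median -0.58), beside 11.4% and 16.5%, and this median became positive, 0.31, when columns were scaled to the same total.

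The 9 cytosolic chaperones all rose in wt DS/30, with log2 ratios from 1.89 to 5.80, and in os2 DS/30, from 1.12 to 3.64. The highest was Sis1 (NCU03732), a J-domain partner of Hsp70, whose wt levels were 54.6, 583 and 3038 FPKM at 30°C, HS and DS, against 53.9, 322 and 670 FPKM for os2. Fes1 (NCU04172), a nucleotide exchange factor of Hsp70, gave 56.2, 99.6 and 2467 FPKM for wt and 45.9, 106 and 392 FPKM for os2. Like Hsp98, Fes1 had its larger step in wt with 2-DG (4.63 in DS/HS against 0.82 in HS/30 on the log2 scale). The same held in wt for Hsp70 (3.28 against 1.22), Hsp90 (2.78 against 1.65), Sti1 (1.12 against 0.77) and, marginally, Ydj1 (1.12 against 1.06). It did not hold for Sis1, Hsp88, p23 and Cyp40. Scaling to the same total adds 0.41 to each HS/30 value of wt and takes 0.73 from each DS/HS value. The order then turns around for Sti1 and Ydj1 and is about even for Hsp90, while Fes1 and Hsp70 keep the larger step in DS/HS.

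Hsp70 gave 971, 2268 and 22066 FPKM for wt and 913, 2724 and 4138 FPKM for os2. Hsp90 (NCU04142), which folds signaling proteins among others, gave 667, 2087 and 14294 FPKM for wt and 663, 2462 and 4378 FPKM for os2. In HS Hsp70 had a log2 os2/wt ratio of 0.26 and Hsp90 of 0.24, whereas those of Sis1 (-0.86), Hsp88 (-0.50) and Cyp40 (-0.37) were negative, none of them past 2-fold, nor was Hsp98 (-0.93). In os2/wt DS 5 of the 9 cytosolic chaperones were lower, beside 16.5% of all genes. Their log2 ratios were -2.66 for Fes1, -2.41 for Hsp70, -2.18 for Sis1, -1.71 for Hsp90 and -1.04 for Ydj1. Scaling to the same total adds 0.89 to each of these, so that Hsp90 and Ydj1 no longer pass 2-fold.

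The 3 mitochondrial chaperones moved less than Hsp78. Hsp60 and Hsp10 rose in DS/30 in both strains, with log2 ratios of 2.28 (wt) and 2.07 (os2) for Hsp60 and of 2.08 (wt) and 2.28 (os2) for Hsp10, and GrpE fell (-1.63 and -1.35). None of the 3 passed 2-fold in os2/wt DS, whereas Hsp78 was 4.76-fold lower there. Of the 3 chaperones of the endoplasmic reticulum, Grp78 rose in DS/30 in both strains (1.30 in wt, 1.50 in os2), while the prolyl isomerases CypB and FKBP22 fell in wt HS/30 (-1.48 and -1.03). The summed FPKM of the 3 members relative to that of the 15 others was 0.0248 at 30°C, 1.16 after HS and 2.07 after DS for wt, and 0.0233, 0.306 and 1.88 for os2. Members thus exceeded the sum of the other 15 in wt HS, wt DS and os2 DS, but not in os2 HS.

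Likeness of pattern was measured as the root mean square difference between genes' log2 FPKM over the 6 libraries, after centring each gene, among 7972 genes above 0 throughout. These points share 6 libraries, and the values are a description. Hsp98 and Hsp78, which lie on different chromosomes, were each the nearest gene to the other, with a difference of 0.54. This depended on the measure. By Pearson's r over the 6 libraries, Hsp78 was at place 17 from Hsp98, and Hsp98 at place 21 from Hsp78. Hsp30 was further from both. It differed by 1.49 from Hsp78, the 6th nearest gene to it, and by 1.79 from Hsp98, the 11th nearest.

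The 5 genes nearest to Hsp30 were NCU16376 (0.63), NCU01735 (0.88), NCU03535 (0.89), NCU07232 (1.36) and NCU07082 (1.42), and these 5 were also found among genes with a mean of at least 10 FPKM. After Hsp78, those nearest to Hsp98 were NCU09443 (0.89), NCU08404 (0.93), NCU01093 (1.02) and NCU05191 (1.16). After Hsp98, those nearest to Hsp78 were NCU08404 (0.63), NCU09443 (0.84), NCU16376 (0.86) and NCU01093 (0.95). NCU08404, NCU01093 and NCU05191 had means of 1.75 to 2.44 FPKM and rested on about 0.966 to 5.44 fragments at 30°C, so their places are imprecise. The places of NCU16376 are imprecise too, as it rested on about 1.01 (wt) and 1.02 (os2) fragments at 30°C. A limit on the mean does not remove it, since its mean was 20.4 FPKM. At a mean of at least 10 FPKM, 2 of the 5 remained for Hsp98 and 3 for Hsp78.

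The genes near Hsp30 did not all share its course. NCU03535 had 0.730 FPKM at 30°C, 36.0 after HS and 1572 after DS for wt, and 0.578, 17.1 and 222 FPKM for os2, the order of treatments seen in the members, from about 10.6 and 9.53 fragments at 30°C. NCU01735, with about 32.6 and 50.7 fragments at 30°C, was higher in os2 than in wt under DS (651 against 569 FPKM). NCU07232 went down from HS to DS in wt, from 1904 to 1105 FPKM. When Pearson's r over the 6 libraries was used for likeness, none of the 5 genes remained for any member, so the lists depend on the measure.

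The gene nearest to Hsp30 in pattern was also near it on chromosome I. NCU16376 is the second gene from Hsp30, at a gap of 5329 base pairs, which was noticed after its values were seen. Its wt levels were 0.109 FPKM at 30°C, 9.32 after HS and 86.3 after DS, and its os2 levels 0.0972, 2.57 and 23.9 FPKM. Its values at 30°C rest on about 1 fragment in wt (1.01) and in os2 (1.02), so no fold against 30°C is given for it. From HS to DS it rose by 3.21 in wt and 3.22 in os2 on the log2 scale, beside 2.86 and 3.15 for Hsp30.

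Between NCU16376 and Hsp30 lies NCU09365, 1143 base pairs from Hsp30, with 1.76, 20.3 and 40.8 FPKM for wt and 2.10, 6.35 and 17.2 FPKM for os2. It rose in DS/30 in both strains (4.53 and 3.03) and, like Hsp30, in HS/30 (3.53 and 1.60). On the other side NCU10352 overlaps Hsp30 by 147 base pairs, and reads in the overlap cannot be told apart, since no source used here states that the counting used strand. Its level moved otherwise, with 318 FPKM at 30°C, 42.5 after HS and 450 after DS for wt, and 288, 110 and 125 FPKM for os2, so it fell in HS, where Hsp30 rose 222-fold and 72.4-fold. Beyond it, NCU09363 and NCU09362, named after their values were seen, rose in wt DS/30 by 3.05 and 2.52, and NCU09363 also in os2 (1.36).

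Within 20 kb of Hsp30, a window chosen after the values were seen, 4 of 8 genes rose in wt DS/30 and 1 fell, and 3 rose and 2 fell in os2 DS/30. Without NCU16376, 3 of 7 rose in wt and 2 of 7 in os2. Around Hsp98, 2 of 13 genes rose and 4 fell in wt, and 0 rose and 3 fell in os2. Around Hsp78, 0 of 11 rose and 4 fell in wt, and 0 rose and 4 fell in os2. Over all genes 19.4% rose and 15.1% fell in wt DS/30, and 23.3% rose and 19.4% fell in os2 DS/30. With so few genes these counts single out no region. The direct neighbors of Hsp98, NCU00103 and NCU00105, lay 538 and 1418 base pairs away and had log2 wt DS/30 ratios of -0.48 and 1.26. Those of Hsp78, ad-5 and NCU02631, lay 1264 and 1236 base pairs away and fell in wt DS/30 (-1.54 and -2.28). The steep rises of Hsp98 and Hsp78 were thus not seen in the genes beside them.

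**Figure D5:**
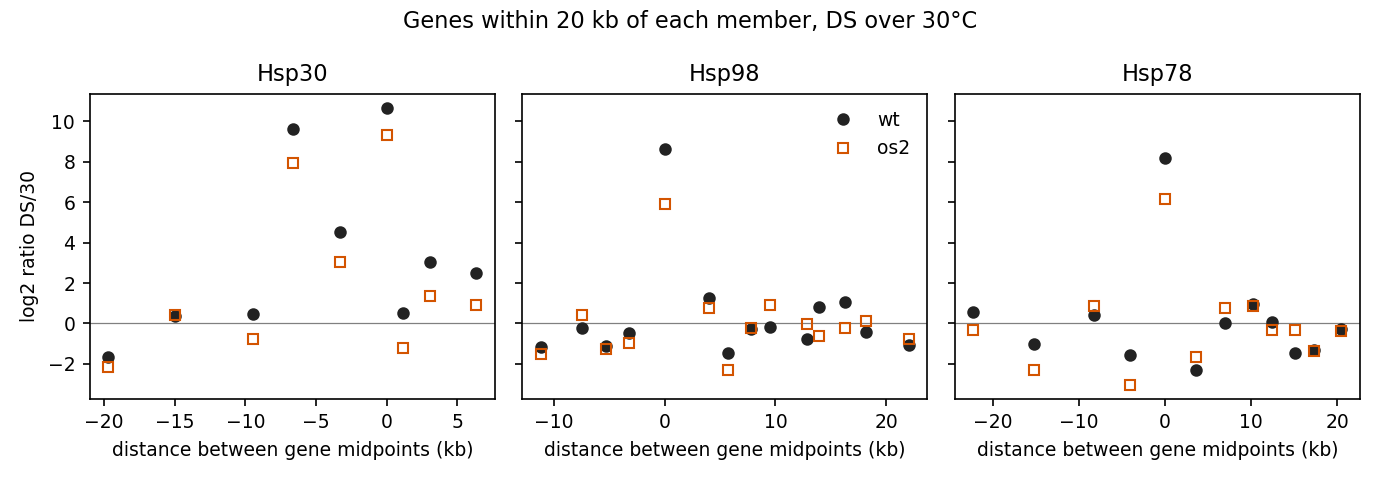
Log2 DS/30 ratio of each gene with a mean of at least 1 FPKM within 20 kb of a member (at 0 kb), by distance between gene midpoints in kb, in wt (filled circles) and os2 (open squares). The highest points beside Hsp30 are those of NCU16376, which rest on about 1 fragment at 30°C and give no reliable height, while the highest wt neighbor of Hsp98 reaches 1.26 and that of Hsp78 0.97.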

How the data were processed

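Polyadenylated RNA was sequenced from 1 library for each of 6 strain and treatment groups, as labelled. According to the labels and methods, the authors used CASAVA 1.8.2 and FastQC, aligned paired reads with TopHat to the 74a_12 genome and estimated levels with Cufflinks, and the FPKM values that the authors deposited fill a single table of genes by libraries. Versions of TopHat and Cufflinks are not given in the sources used here. FPKM corrects for length and by a scaling factor of each library, which did not follow the number of fragments here, so a column depends on its scaling. The ratios that the authors made with Cuffdiff were not used.

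Log2 ratios of FPKM had no pseudocount and needed a value above 0 in each library compared. They were made in 9 comparisons and counted at 2-fold over the 8098 of 9730 genes with a mean of at least 1 FPKM. With 1 library per group no test was made. A single row without an identifier was left out. Coordinates and symbols came from RefSeq (NC12), which matched 9729 identifiers. The lowest values of FPKM multiplied by gene length in each library were taken as 1 fragment, which gave the approximate fragments. For genes with this lowest value both in wt at 30°C and in another library, 5 to 14 per library, FPKM ratios agreed within 0.5%. Whether higher values came in whole steps was not tested. Gene span stood in for transcript length there, so fragments are approximate.

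Named genes were the members, os-2, the 15 other chaperones, 5 nearest genes in pattern, the neighbor on each side and genes ranking above a member at places 2 to 4. Markers of conidia were a separate list, and NCU09363 and NCU09362 were named after their values were seen. Members, lists and comparisons were chosen with earlier results of these data known. Alternatives were 4 scalings of the columns, pseudocounts of 0.1 and 1, other limits on mean FPKM and another measure of likeness. Python 3.11.15, numpy 2.4.6, pandas 2.3.3 and matplotlib 3.10.9 were used, and the calculations were tested on simulated data. Promoter and protein sequences were not analysed here.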

Additional observations from a re-analysis of the deposited data

How the results depend on the processing

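With no spread between replicates, a ratio was taken as moved when the fold, not its logarithm, changed by over 1.5 times, and a count likewise. No member's ratio past 2-fold changed sign under the alternatives run. Signs of smaller values did: Hsp98 in os2/wt at 30°C went from -0.03 to 0.01 with the upper quartile, os2 minus wt in DS/HS of Hsp78 from -0.25 to 0.30 with the same total, and the median of the other chaperones in os2/wt DS from -0.58 to 0.31. Median-ratio scaling moved none of the 90 values it was applied to. It could hardly do otherwise, since the deposited columns were already near that scale and no log2 ratio shifted by more than 0.018. It is therefore no check on the scaling, whereas each scaling to a total moved 25 of 90 values. Scaling to the same total moved the log2 ratios of Hsp30, Hsp98 and Hsp78 to 2.13, 4.66 and 2.95 in wt DS/HS, to 6.95, 3.12 and 3.50 in os2 HS/30, to 9.92, 6.49 and 6.74 in os2 DS/30, and to -0.65, -1.88 and -1.36 in os2/wt DS. The difference os2 minus wt in DS/30 became -0.42, -1.83 and -1.13. Scaling to the same total of all genes but the 3 members gave 2.28, 4.80 and 3.09 in wt DS/HS, 6.96, 3.13 and 3.51 in os2 HS/30, 10.01, 6.58 and 6.84 in os2 DS/30, -0.73, -1.96 and -1.44 in os2/wt DS, and -0.50, -1.91 and -1.21 for the difference in DS/30, so taking out the members' own share of the total changed little. Under both scalings 4 of the 15 other chaperones rose in wt DS/HS, 1 in os2 DS/HS, 2 in os2/wt HS and 1 in os2/wt DS, 0 fell in os2 DS/30 and 3 fell in os2/wt DS. Their medians were 0.39 and 0.54 in wt DS/HS, 2.29 and 2.30 in os2 HS/30, 2.64 and 2.74 in os2 DS/30, and 0.31 and 0.23 in os2/wt DS. With the upper quartile, 1 rose in os2 DS/HS and 2 in os2/wt HS. The places of members by ratio moved with the filter and the pseudocount, for example from 391 to 155 for Hsp98 in os2 HS/30 with a pseudocount of 1, and the log2 ratios themselves moved little, as the members lie far above 0. No paired analysis was possible because each group has 1 library, and for the same reason no replicate could be left out. The planned search of promoters for heat shock elements, with its alternative motif, was not run.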
